A study of Homo sapiens with 8 samples.

Results

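The genes described here are named as host RNAs of small RNAs and were measured in the human prostate cancer line C4-2. Most are long noncoding RNAs whose introns or exons hold small nucleolar RNAs (snoRNAs) or microRNAs. Members were chosen by symbol: SNHG followed by a number, GAS5, ZFAS1, EPB41L4A-AS1 and DANCR as snoRNA hosts, and MIR or MIRLET symbols that end in HG as microRNA hosts. The table lists 58884 genes, and 116 symbols matched, 32 snoRNA and 84 microRNA hosts. Of these, 59 averaged 10 or more normalized counts (reads divided by a library size factor) across the 8 libraries and were tested, 28 snoRNA and 31 microRNA hosts. Within the 59, GENCODE release 29 lists MIR9-1HG and MIR1915HG as protein-coding and MIR3171HG as a transcribed processed pseudogene. Just outside that limit were MIR1302-9HG with a mean of 7.64 and SNHG22 with 7.53, and just inside it MIR663AHG with 10.9 and MIR3171HG with 15.0 normalized counts. MIR663AHG and MIR3171HG had means under 10 in the DMSO libraries and passed through the DTHIB libraries.

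C4-2 is a castration-resistant derivative of the LNCaP line, and its cells were grown with 1 µM DTHIB (also called E12), which the labels name a direct inhibitor of the heat shock factor HSF1, or with the solvent DMSO, for 48 h. Each treatment had 4 libraries of RNA enriched for poly(A) tails, all from 1 cell line. The labels do not say that replicates came from separate cultures, and p-values thus speak only of the spread among these libraries, part or all of it possibly technical. The DTHIB libraries held 27229291 to 29159387 counted reads and the DMSO libraries 29499458 to 30926053. The prostate luminal marker KLK3 had 92047 to 94693 normalized counts in DTHIB libraries, against 65907 to 67323 in DMSO libraries, and KRT8 had 9949 to 10428 in DTHIB libraries, against 12695 to 13419 in DMSO libraries. KRT5, TP63, DCN, PTPRC, CD3E, HBB, CHGA and CHGB had at most 3.00 normalized counts in any library, and HBB was at 0. Summed levels of the other marker lists were 17.0 to 26.1 in DTHIB libraries against 16.3 to 31.8 in DMSO libraries for 3 basal markers, 49.0 to 71.8 against 54.1 to 69.9 for 4 of stroma, 7.30 to 13.0 against 9.65 to 12.0 for 4 of blood and 76.1 to 89.9 against 52.1 to 67.0 for 4 neuroendocrine markers, of which SYP was higher; the part of any of these in the host values was not tested. In bulk RNA, fewer cells of a kind and less RNA per cell cannot be told apart.

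A snoRNA guides 2'-O-methylation (box C/D) or pseudouridylation (box H/ACA) of ribosomal and other RNAs. In vertebrates most snoRNAs are cut from introns, and the spliced exons of the noncoding hosts carry no conserved protein. Many snoRNA hosts, like ribosomal protein genes, begin with a run of pyrimidines, the 5' terminal oligopyrimidine tract, and their spliced RNAs are classical substrates of nonsense-mediated decay, GAS5 among them. A microRNA host is the primary transcript, or its spliced remainder, from which DROSHA and DGCR8 cut the hairpin, so that the level of the host does not give the level of the mature microRNA. Poly(A) RNA-seq measures the hosts and not the mature small RNAs.

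Several of the microRNA hosts whose RNA was higher in DTHIB cells carry microRNAs of the same seed, the bases 2 to 8 that pair with a target, and the mature sequences below are shown with the seed in capitals so that the shared families can be seen. They were taken from RefSeq (GRCh38.p14). By their GENCODE release 29 spans, 29 of the 31 tested microRNA hosts hold such a mature microRNA on their own strand. By these spans the let-7 seed GAGGUAG occurs in 5 mature microRNAs of 4 hosts.
hsa-let-7c-5p, chr21:16539838-16539859, + strand, in MIR99AHG: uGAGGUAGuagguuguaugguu
hsa-let-7a-5p, chr22:46112752-46112773, + strand, in MIRLET7BHG: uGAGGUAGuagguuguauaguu
hsa-let-7b-5p, chr22:46113691-46113712, + strand, in MIRLET7BHG: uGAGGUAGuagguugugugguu
hsa-let-7i-5p, chr12:62603691-62603712, + strand, in MIRLET7IHG: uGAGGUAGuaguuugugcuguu
hsa-miR-4458, chr5:8460933-8460951, + strand, in MIR4458HG: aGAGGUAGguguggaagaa

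The 6 microRNA genes of the miR-17-92 cluster lie in MIR17HG and hold the seeds AAAGUGC in miR-17-5p and miR-20a-5p and GUGCAAA in miR-19a-3p and miR-19b-3p. Both miR-29 members of MIR29B2CHG share AGCACCA. Hosts that were not called hold shared seeds too, GCUACAU in miR-221-3p and miR-222-3p of MIR222HG and AGCAGCA in miR-195-5p and miR-497-5p of MIR497HG. MIR34AHG and MIR200CHG hold miR-34a, a target of the tumour suppressor p53, and miR-200c with miR-141, which repress the epithelial-mesenchymal regulators ZEB1 and ZEB2. The last sequence, miR-503-5p, lies in a host that was lower in DTHIB cells.
hsa-miR-17-5p, chr13:91350618-91350640, + strand, in MIR17HG: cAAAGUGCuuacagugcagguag
hsa-miR-20a-5p, chr13:91351072-91351094, + strand, in MIR17HG: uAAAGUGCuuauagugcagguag
hsa-miR-19a-3p, chr13:91350939-91350961, + strand, in MIR17HG: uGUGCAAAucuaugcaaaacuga
hsa-miR-19b-3p, chr13:91351245-91351267, + strand, in MIR17HG: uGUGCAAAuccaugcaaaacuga
hsa-miR-29b-3p, chr1:207802450-207802472, - strand, in MIR29B2CHG: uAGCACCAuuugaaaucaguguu
hsa-miR-29c-3p, chr1:207801865-207801886, - strand, in MIR29B2CHG: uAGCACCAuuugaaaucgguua
hsa-miR-34a-5p, chr1:9151735-9151756, - strand, in MIR34AHG: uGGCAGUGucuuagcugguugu
hsa-miR-200c-3p, chr12:6963742-6963764, + strand, in MIR200CHG: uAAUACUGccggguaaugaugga
hsa-miR-141-3p, chr12:6964155-6964176, + strand, in MIR200CHG: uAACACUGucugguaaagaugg
hsa-miR-503-5p, chrX:134546371-134546393, - strand, in MIR503HG: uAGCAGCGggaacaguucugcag

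For the snoRNA hosts the sequence shown is the start of the gene, from 250 bases before to 50 bases after the RefSeq start (GRCh38.p14), because most of these genes were called higher and they are known for their pyrimidine-rich starts. RefSeq windows were found for 24 of the 28 tested snoRNA hosts and 28 of the 31 microRNA hosts. The 3 printed are the snoRNA hosts of smallest adjusted p whose RefSeq start lies within 10 bases of a GENCODE release 29 transcript start; GAS5 and SNHG3, which would otherwise have been among them, are left out because their RefSeq starts match no GENCODE start within that distance. This choice, and the distance limit itself, were made after the values were seen. Capitals mark runs of at least 6 pyrimidines within 20 bases of the start and, in SNHG29, the letters GAANNTTC. The run in SNHG29 and the first run in SNHG4 end before the RefSeq start.
SNHG29, chr17:16438737-16439036, + strand: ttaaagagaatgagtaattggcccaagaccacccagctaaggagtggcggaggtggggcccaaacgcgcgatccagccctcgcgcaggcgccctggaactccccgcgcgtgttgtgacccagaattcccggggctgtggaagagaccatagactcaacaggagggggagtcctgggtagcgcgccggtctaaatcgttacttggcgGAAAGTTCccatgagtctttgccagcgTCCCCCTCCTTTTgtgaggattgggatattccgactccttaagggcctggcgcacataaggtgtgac
SNHG4, chr5:139273851-139274150, + strand: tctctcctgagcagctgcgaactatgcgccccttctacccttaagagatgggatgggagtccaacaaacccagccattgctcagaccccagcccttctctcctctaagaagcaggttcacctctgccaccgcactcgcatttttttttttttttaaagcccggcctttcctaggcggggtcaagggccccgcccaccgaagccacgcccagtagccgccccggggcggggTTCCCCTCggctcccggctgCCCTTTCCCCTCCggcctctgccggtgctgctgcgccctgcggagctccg
SNHG19, chr16:2155309-2155608, - strand: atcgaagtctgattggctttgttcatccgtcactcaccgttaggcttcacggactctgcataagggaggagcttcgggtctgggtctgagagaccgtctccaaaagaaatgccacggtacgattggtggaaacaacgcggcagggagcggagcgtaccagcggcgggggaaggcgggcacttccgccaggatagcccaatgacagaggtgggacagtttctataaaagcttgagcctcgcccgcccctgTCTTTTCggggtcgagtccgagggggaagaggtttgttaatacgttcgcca

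A run of at least 6 pyrimidines on the gene's strand within 20 bases of the start was present in 17 of 24 snoRNA hosts (70.8%) and 12 of 28 microRNA hosts (42.9%), beside 44.0% of all 27305 genes with a window. Runs that end before the start were counted too, so a run need not be a 5' terminal tract of the RNA. A subset of hosts, also chosen after the values were seen, has a RefSeq start within 10 bases of a GENCODE start. In that subset a run was present in 14 of 19 snoRNA hosts and 8 of 21 microRNA hosts. The share of all genes under the same limit was not computed. Letters of 3 factors were searched on both strands of the whole windows. GAANNTTC, an inverted pair of heat shock units, was in 2 of 24 snoRNA and 2 of 28 microRNA hosts beside 8.21% of all genes. TGATGNAA, the CCAAT-enhancer-ATF response element read by ATF4, was in 0 and 1 beside 4.46%. CACGTG, the E-box read by MYC, was in 2 and 0 beside 8.78%. The snoRNA hosts with GAANNTTC were GAS5 and SNHG29, and those with CACGTG were SNHG7 and SNHG30. A match is a description of letters, and none of these windows was measured for binding. The marked stretches in the 3 printed windows share no bases with each other.

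Host RNAs of both classes were mostly higher in cells given DTHIB. Among snoRNA hosts 18 of 28 were higher and 1 lower, and among microRNA hosts 21 of 31 were higher and 2 lower, by limma across all genes with Benjamini-Hochberg adjusted p under 0.05. The 21 include MIR3171HG, which passed the limit of 10 only through the DTHIB libraries where it is high. Much of the transcriptome differed between the treatments: of the 17194 tested genes 64.6% were called in either direction, 31.0% higher and 33.7% lower. The share of hosts called in either direction, 67.9% of snoRNA and 74.2% of microRNA hosts, was therefore near the background, whereas the share called higher was 64.3% and 67.7%, beside 31.0% of all tested genes. The median log2 fold change was 0.49 for snoRNA hosts and 0.60 for microRNA hosts, beside -0.0051 over all tested genes. Noncoding genes as a whole leaned the same way: of 2353 other tested long noncoding genes 39.0% were higher and 285 genes lower, with a median of 0.28, while of 13162 protein-coding genes 29.1% were higher and 40.1% lower with a median of -0.050. Other tools gave similar backgrounds: edgeR called 64.7% of tested genes, 32.3% higher and 32.4% lower, and DESeq2 59.9%, 29.5% higher and 30.4% lower. In the authors' deposited table the calls were 18 higher and 1 lower for snoRNA hosts and 19 higher and 2 lower for microRNA hosts. Over the 17194 tested genes that table had 4607 higher and 5257 lower.

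**Figure D1:**
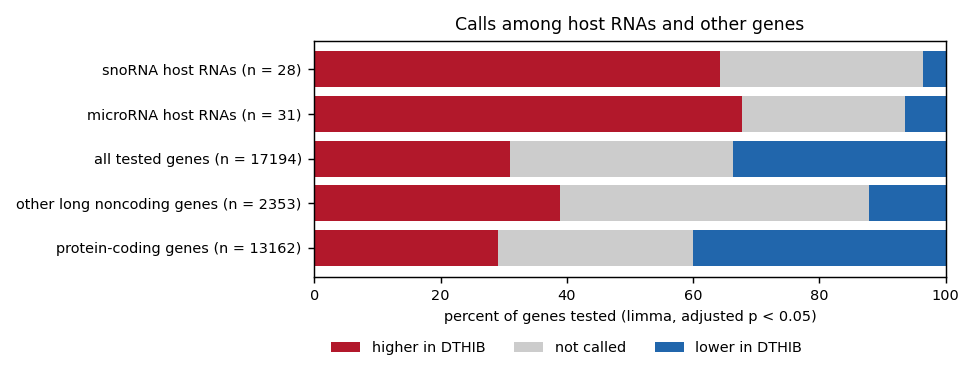
Horizontal bars give the percent of tested genes called higher, not called or called lower in DTHIB libraries (limma, adjusted p under 0.05) for snoRNA hosts, microRNA hosts, all tested genes, other long noncoding genes and protein-coding genes. The higher share is 64.3% and 67.7% in the host classes and 31.0% over all tested genes.

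The classes differed in level and in spread, described here with no test between them. Per kilobase of exon the median level of snoRNA hosts was 240.3 normalized counts in DTHIB libraries and 176 in DMSO libraries, and that of microRNA hosts was 21.3 in DTHIB libraries and 14.0 in DMSO libraries. Summed over members, snoRNA hosts held 47303 to 48392 normalized counts in the DTHIB libraries, against 34566 to 35518 in the DMSO libraries, and microRNA hosts 5820.4 to 6964 in the DTHIB libraries, against 3634 to 3920 in the DMSO libraries; in both classes the sums did not overlap between treatments. The quartiles of the fold changes were 0.12 and 0.68 on the log2 scale among snoRNA hosts and 0.23 and 0.91 among microRNA hosts. No snoRNA host reached a 2-fold difference, and 5 microRNA hosts did, all of them higher; 1 of the 5 is MIR3171HG, which passed the limit of 10 only through the DTHIB libraries where it is high. The 4 DTHIB values lay wholly above the 4 DMSO values in 18 of 28 snoRNA hosts and 18 of 31 microRNA hosts, beside 27.1% of all tested genes, and wholly below in 1 and 2, beside 30.8%.

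**Figure D2:**
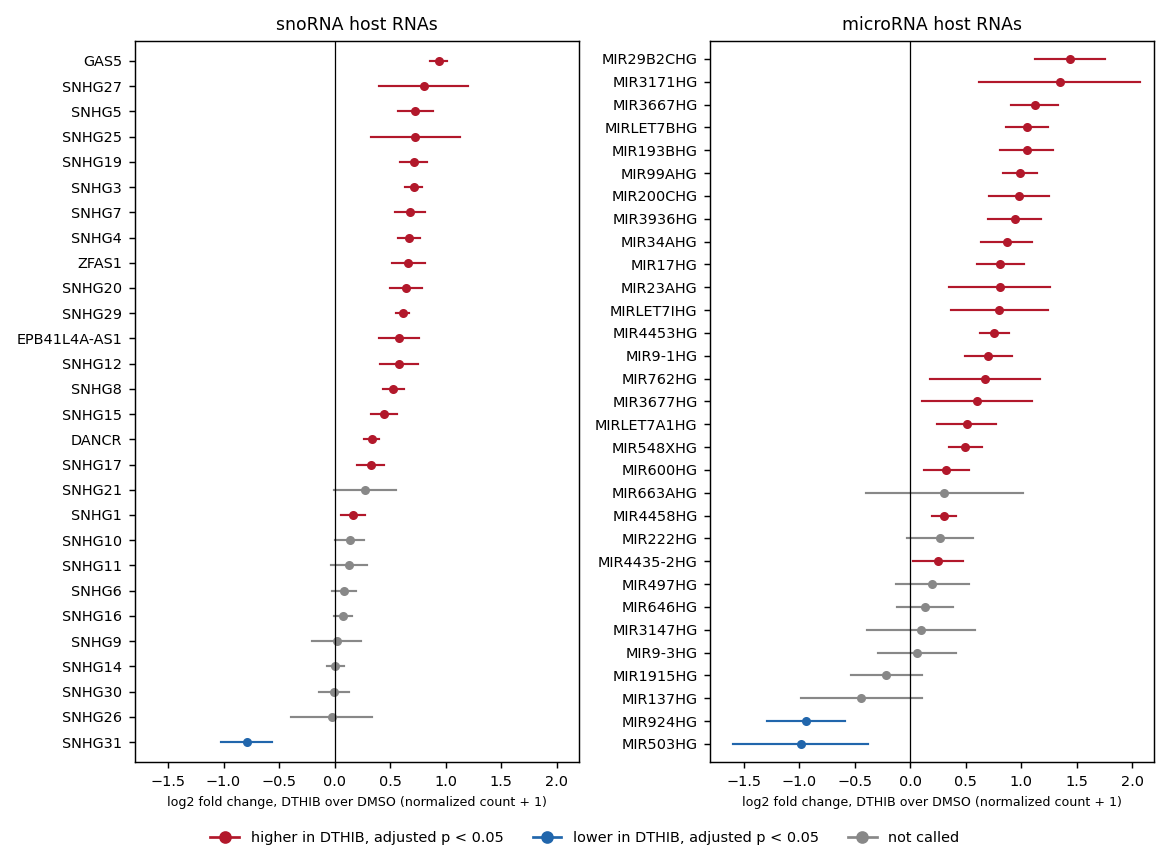
Points give the log2 fold change of each tested host RNA, DTHIB over DMSO, and lines its 95% confidence interval from limma, with snoRNA hosts on the left and microRNA hosts on the right. GAS5 heads the snoRNA hosts at 0.94 and MIR29B2CHG the microRNA hosts at 1.44, and SNHG31, MIR924HG and MIR503HG are the 3 called lower.

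GAS5, the host of a cluster of box C/D snoRNAs and a long-studied growth arrest transcript, changed most among the snoRNA hosts. It had 6358, 6461, 6428 and 6470.1 normalized counts in the DTHIB libraries, against 3620.2, 3370.4, 3284 and 3175 in the DMSO libraries. Every DTHIB value exceeded every DMSO value, with means of 6429 ± 50.9 in DTHIB libraries and 3363 ± 189 in DMSO libraries (SD, n = 4 each). Its log2 fold change was 0.94 ± 0.035 (SE; adjusted p = 4.7e-13), a ratio of means of 1.91. RefSeq lists 11 snoRNA genes within it.

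SNHG29, host of SNORD49A, SNORD49B and SNORD65, was the most abundant host RNA per length. Its values were 13792, 13278, 12917 and 13655 normalized counts in the DTHIB libraries, against 8652, 8614, 8945 and 8810.0 in the DMSO libraries. The groups did not overlap, and the log2 fold change was 0.61 ± 0.028 (SE; adjusted p = 6.0e-12). SNHG3 carries both copies of SNORA73, the U17 snoRNA that acts in ribosomal RNA processing. It was read at 2616, 2914, 2863 and 2776 normalized counts in the DTHIB libraries, against 1702, 1635, 1718 and 1759 in the DMSO libraries, again with no overlap, and its log2 fold change was 0.71 ± 0.038 (SE; adjusted p = 4.2e-11). SNHG4, host of SNORA74A, had 1267, 1469, 1364 and 1406 normalized counts in the DTHIB libraries, against 869.6, 829.7, 902 and 848 in the DMSO libraries. All DTHIB values were higher, with a log2 fold change of 0.67 ± 0.047 (SE; adjusted p = 1.5e-09).

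Of the hosts that do not carry the SNHG name, ZFAS1 holds the SNORD12 group and overlaps ZNFX1 on the opposite strand. ZFAS1 had 471, 558, 504 and 469.8 normalized counts in the DTHIB libraries, against 336, 332, 302 and 291 in the DMSO libraries, without overlap, and a log2 fold change of 0.67 ± 0.070 (SE; adjusted p = 2.7e-07). EPB41L4A-AS1, the host of SNORA13, showed 369.9, 374, 399 and 307 normalized counts in the DTHIB libraries, against 256, 213, 257 and 240.5 in the DMSO libraries. Those groups were also apart, and the log2 fold change was 0.58 ± 0.085 (SE; adjusted p = 1.3e-05); 49.6% of its exonic bases are shared with EPB41L4A on the opposite strand, which had a mean of 3.72 normalized counts. DANCR, host of SNORA26, is known from work on stem cells as a brake on differentiation. Its values of 3778, 3724, 3852 and 3595 normalized counts in the DTHIB libraries, against 2856, 2943, 3023 and 3045 in the DMSO libraries did not overlap, and its change was smaller, at 0.33 ± 0.032 (SE; adjusted p = 1.0e-07).

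SNHG1, the U22 host with a series of box C/D snoRNAs, changed least among the hosts called higher. It had 1832, 2069, 1852 and 1881 normalized counts in the DTHIB libraries, against 1786, 1811, 1691 and 1533 in the DMSO libraries. The lowest DTHIB value lay just above the highest DMSO value, and the log2 fold change was 0.16 ± 0.051 (SE; adjusted p = 0.0095). The remaining snoRNA hosts called higher were SNHG27 (0.80), SNHG5 (0.73), SNHG25 (0.73), SNHG19 (0.71), SNHG7 (0.68), SNHG20 (0.65), SNHG12 (0.58), SNHG8 (0.53), SNHG15 (0.44) and SNHG17 (0.33), with log2 fold changes in parentheses. In each of these 10 the treatments did not overlap. SNHG27 is a snoRNA host by its symbol only, since its annotated span holds no snoRNA gene.

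SNHG31, host of SNORA70I, was the 1 snoRNA host called lower. Its values were 83.4, 66.7, 75.9 and 73.8 normalized counts in the DTHIB libraries, against 138, 126, 127 and 129 in the DMSO libraries. Each DTHIB value lay under each DMSO value, and the log2 fold change was -0.79 ± 0.11 (SE; adjusted p = 5.4e-06). Its span overlaps ABCA12 on the opposite strand, whose log2 fold change was -0.35 (adjusted p = 0.14).

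Another 9 snoRNA hosts were not called, with log2 fold changes of SNHG21 (0.27), SNHG10 (0.14), SNHG11 (0.13), SNHG6 (0.087), SNHG16 (0.080), SNHG9 (0.020), SNHG14 (0.0065), SNHG30 (-0.0067) and SNHG26 (-0.026). SNHG14, the imprinted transcript that carries the SNORD115 and SNORD116 arrays and runs antisense to UBE3A, had the second highest mean normalized count of the snoRNA hosts, after SNHG29. SNHG14 had 6726, 7296, 6811 and 6846 normalized counts in the DTHIB libraries, against 6829, 6556, 6824 and 7355 in the DMSO libraries. Those values overlapped, and the 95% confidence interval of the log2 fold change ran from -0.069 to 0.082. SNHG16, host of the SNORD1 group, averaged 1980.1 ± 41.3 in DTHIB libraries and 1875 ± 94.9 in DMSO libraries (SD, n = 4 each), and edgeR on recovered reads called it higher (adjusted p = 0.036) where limma did not (0.078). SNHG10 passed without DTHIB replicate 2 or DMSO replicate 4 (adjusted p = 0.040 and 0.013), SNHG16 without DMSO replicate 1 (0.027), SNHG21 without DTHIB replicate 3 (0.030) and SNHG6 without DTHIB replicate 2 (0.036), all 4 higher.

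**Figure D3:**
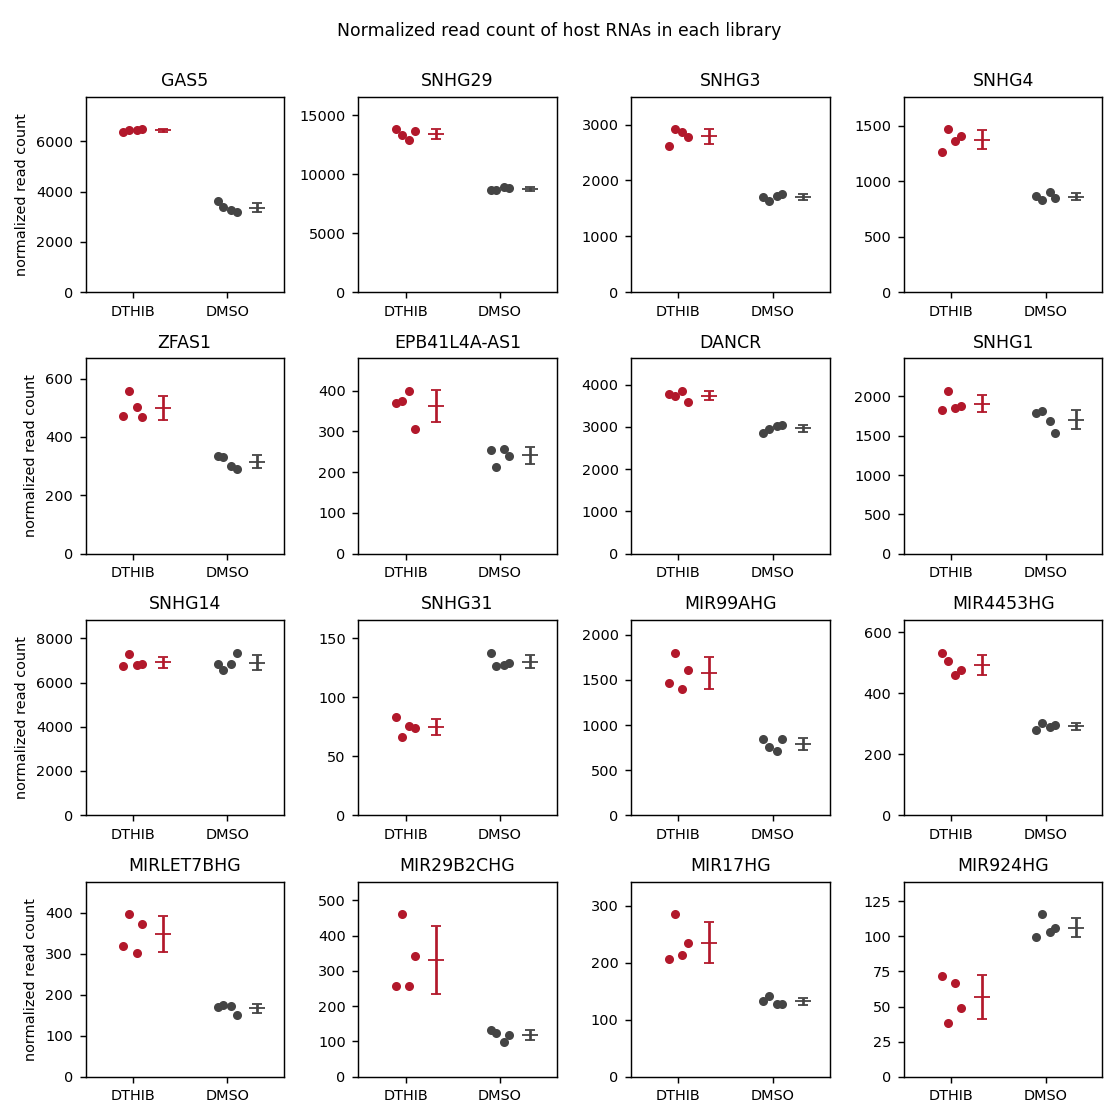
Normalized read count of 16 host RNAs in each library, DTHIB libraries as red points on the left and DMSO libraries as grey points on the right, with the mean and SD (n = 4 each) beside the points. The groups are apart in every panel but that of SNHG14; SNHG31 and MIR924HG are the 2 with lower DTHIB values.

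Among microRNA hosts, MIR99AHG had the smallest adjusted p. It holds miR-99a, let-7c and miR-125b, and had 1471, 1804, 1401 and 1614 normalized counts in the DTHIB libraries, against 848, 752, 713 and 848 in the DMSO libraries. The groups were apart and the log2 fold change was 0.99 ± 0.070 (SE; adjusted p = 2.0e-09). MIR4453HG, the host of miR-4453, showed 533, 504, 460.4 and 476 normalized counts in the DTHIB libraries, against 279, 303, 288 and 295 in the DMSO libraries. All DTHIB values were higher, with a log2 fold change of 0.76 ± 0.062 (SE; adjusted p = 1.2e-08). MIRLET7BHG spans let-7a and let-7b, members of a family that represses RAS genes, HMGA2 and LIN28. It was read at 319, 397, 303 and 374 normalized counts in the DTHIB libraries, against 169.5, 174, 173 and 151 in the DMSO libraries, without overlap, and its log2 fold change was 1.05 ± 0.090 (SE; adjusted p = 2.2e-08).

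MIR17HG is the primary transcript of the miR-17-92 cluster, a known target of MYC. It had 206, 286, 214 and 235 normalized counts in the DTHIB libraries, against 133, 142, 128 and 127 in the DMSO libraries. The DTHIB values all lay above the DMSO values, and the log2 fold change was 0.81 ± 0.10 (SE; adjusted p = 1.9e-06). MIR29B2CHG, the host of miR-29b and miR-29c, which repress collagen genes, had the largest fold change of the class and is named for that after its values were seen. Its values were 257, 461, 258 and 342 normalized counts in the DTHIB libraries, against 131, 123, 98.4 and 117 in the DMSO libraries. The groups did not overlap, DTHIB replicate 2 stood highest, and the log2 fold change was 1.44 ± 0.15 (SE; adjusted p = 2.3e-07) with all libraries and 1.27 at the lowest with 1 library left out.

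The 4 hosts of the let-7 seed printed above were all called higher, MIR99AHG and MIRLET7BHG as given, MIRLET7IHG with 0.80 and MIR4458HG with 0.31 on the log2 scale. The share called higher was 67.7% of all tested microRNA hosts and 31.0% of all tested genes. MIRLET7IHG averaged 61.3 ± 21.2 in DTHIB libraries and 33.7 ± 5.12 in DMSO libraries (SD, n = 4 each). MIRLET7A1HG, whose GENCODE span holds no microRNA gene, was higher by 0.51. Its RefSeq start lies before that span, so the lack of a microRNA may come from the span used. miR-9 lies in both MIR9-1HG and MIR9-3HG, which had log2 fold changes of 0.70 (adjusted p = 9.0e-06) and 0.062 (adjusted p = 0.76); the difference between these 2 hosts was not tested.

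Further hosts called higher were MIR3171HG (1.35), MIR3667HG (1.12), MIR193BHG (1.05), MIR200CHG (0.98), MIR3936HG (0.94), MIR34AHG (0.87), MIR23AHG (0.81), MIR762HG (0.68), MIR3677HG (0.60), MIR548XHG (0.50), MIR600HG (0.32) and MIR4435-2HG (0.25), by log2 fold change. MIR34AHG averaged 290.2 ± 50.6 in DTHIB libraries and 157 ± 14.7 in DMSO libraries (SD, n = 4 each), and MIR200CHG, the microRNA host of highest level per length, 141 ± 14.0 in DTHIB libraries and 71.0 ± 11.6 in DMSO libraries (SD, n = 4 each). MIR3171HG, with means of 21.5 in DTHIB and 8.43 in DMSO libraries, passed the limit of 10 only through the DTHIB libraries. In MIR23AHG, MIR762HG and MIR4435-2HG the treatments overlapped although limma called them. Calls of 3 hosts depended on single libraries: MIR762HG was not called without DTHIB replicate 1 or 4 or DMSO replicate 1 (adjusted p = 0.059, 0.051 and 0.073), MIR3677HG without DTHIB replicate 2 or 3 or DMSO replicate 1, 3 or 4 (0.065 to 0.096), and MIR4435-2HG without any 1 library other than DTHIB replicate 2 and DMSO replicate 4 (0.066 to 0.14). The authors' deposited table also did not call MIR3677HG and MIR4435-2HG.

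MIR924HG and MIR503HG were the microRNA hosts called lower. MIR924HG had 71.9, 38.6, 66.9 and 48.9 normalized counts in the DTHIB libraries, against 99.6, 116, 103 and 106 in the DMSO libraries. MIR503HG, which holds miR-503, known for repressing cell cycle genes, had 5.21, 14.6, 9.99 and 11.0 normalized counts in the DTHIB libraries, against 19.2, 17.2, 21.2 and 23.0 in the DMSO libraries. In both, every DTHIB value lay under every DMSO value, with log2 fold changes of -0.94 ± 0.17 (SE; adjusted p = 1.1e-04) for MIR924HG and -0.99 ± 0.29 (SE; adjusted p = 0.0063) for MIR503HG. The counts of MIR503HG are few, so its ratio is the less certain of the pair.

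Not called were MIR663AHG (0.31), MIR222HG (0.27), MIR497HG (0.20), MIR646HG (0.13), MIR3147HG (0.10), MIR9-3HG (0.062), MIR1915HG (-0.21) and MIR137HG (-0.44). MIR222HG, which holds miR-221 and miR-222, known repressors of the cell cycle inhibitor CDKN1B, averaged 69.5 ± 7.55 in DTHIB libraries and 57.6 ± 7.84 in DMSO libraries (SD, n = 4 each), and the 95% confidence interval of its log2 fold change ran from -0.030 to 0.57. MIR137HG was called lower once DMSO replicate 4 was left out (log2 fold change -0.64, adjusted p = 0.037).

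Below the limit of 10 were 57 members, 4 snoRNA and 53 microRNA hosts, and 21 of the 57 were listed at 0 in all 8 libraries. MIR22HG and MIR31HG, both widely studied hosts, were among those at 0, as were MIR205HG, whose microRNA marks basal prostate cells, and SNHG28 and SNHG32. All 37 mitochondrial genes were also listed at 0, so a listed 0 is not read here as absence of the RNA.

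A count made after the values were seen showed how the DTHIB libraries ranked. DTHIB replicate 2 was the highest of the 4 DTHIB libraries in 16 of the 31 tested microRNA hosts (51.6%) and 10 of the 28 tested snoRNA hosts (35.7%). The same library was the highest in 37.1% of other long noncoding genes, 22.2% of protein-coding genes and 25.2% of all tested genes. Among the hosts called higher it was the highest in 12 of 21 microRNA and 8 of 18 snoRNA hosts. Without it 20 snoRNA hosts and 20 microRNA hosts were called higher, with 1 and 2 lower. In that fit 4989 of all 17194 tested genes were called higher and 5532 lower.

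Many hosts overlap other genes, and since no source used here gives the strand setting of the counting, reads of genes on opposite strands cannot be told apart where they share bases. For 15 snoRNA hosts and 14 microRNA hosts a tested gene overlaps the span, in 19 and 21 pairs, of which 5 and 6 overlapping genes were higher and 6 and 8 lower in DTHIB cells, shares near the 31.0% higher and 33.7% lower of all tested genes. SNHG3 overlaps RCC1 on the same strand, and the 2 genes differed in direction. RCC1, the exchange factor for the nuclear transport GTPase Ran, had 2977, 2766, 3214 and 2836 normalized counts in DTHIB libraries, against 5829.7, 5672, 5931 and 5174 in DMSO libraries. Its log2 fold change was -0.94 (adjusted p = 1.7e-11), opposite in sign to that of SNHG3, with 242 exonic bases in common.

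Beside GAS5, ZBTB37 on the opposite strand was higher (0.67 on the log2 scale) and GAS5-AS1 lower (-0.78). MIRLET7BHG was higher while PRR34-AS1 (-0.74), PRR34 (-0.59) and ENSG00000231010 (-0.65) within its span were lower. Other hosts called higher lay over genes called lower, SNHG12 over TRNAU1AP (-0.23), MIR3677HG over RNPS1 (-0.30), MIR4435-2HG over BCL2L11 (-0.21), MIR762HG over BCL7C (-0.14) and MIR600HG over STRBP (-0.10). Genes called higher with their hosts were LRRC75A (0.35) and ENSG00000266651 (0.86) at SNHG29, LNCTAM34A (0.60) at MIR34AHG, SLC22A5 (0.30) at MIR3936HG, ENSG00000213279 (0.33) at MIR3667HG and LINC01465 (0.50) at MIRLET7IHG.

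Some hosts not called overlap a gene that was called: SNHG10 overlaps GLRX5 (-0.35), SNHG6 overlaps MCMDC2 (-0.43), SNHG14 overlaps UBE3A (-0.14) and MIR137HG overlaps DPYD (-0.29), all 4 lower, and C17orf49 at MIR497HG (0.36) was higher. SNHG21 shares 72.9% of its exonic bases with ENSG00000252690, which was higher by 1.10, so the value of SNHG21 is uncertain. RPL7AP66, a pseudogene of the ribosomal protein gene RPL7A in the span of MIR924HG, was higher (0.35) while MIR924HG was lower, and reads of RPL7A copies may be split between them. Overlapping genes not called were DANCR's ENSG00000248375 (-0.29), SNRPN at SNHG14 (-0.10), SEC14L1 at SNHG20 (0.068), SIL1 (0.021) and MATR3 (0.013) at SNHG4, DIPK1B at SNHG7 (0.063), ZNFX1 at ZFAS1 (0.083), ZSWIM4 at MIR23AHG (0.24), SLC22A4 at MIR3936HG (0.36), ACOXL at MIR4435-2HG (-0.028), ENSG00000235111 at MIR3667HG (-0.056), ENSG00000270071 at MIR99AHG (0.064), LINC02939 at MIRLET7BHG (-0.10) and ENSG00000275180 at MIRLET7IHG (0.48). The MATR3 entry, ENSG00000280987, had a mean of only 12.5 normalized counts and shares 14.0% of the exonic bases of SNHG4. With 1 library left out, calls were lost for DPYD (any but DTHIB replicates 3 and 4), LINC01465 (any but DTHIB replicates 2 and 3 and DMSO replicate 2), RPL7AP66 (DTHIB replicate 1 or 3 or DMSO replicate 4), LRRC75A (DMSO replicate 2 or 3), BCL7C (DTHIB replicate 4 or DMSO replicate 1) and C17orf49 (DTHIB replicate 3), while ABCA12 was called lower without DMSO replicate 4 and ENSG00000275180 higher without DMSO replicate 2. Of 11 snoRNA hosts and 10 microRNA hosts that overlap no annotated gene other than small RNA genes, 8 and 6 were called higher. Called lower were 0 and 1, beside 31.0% higher and 33.7% lower of all tested genes.

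**Figure D4:**
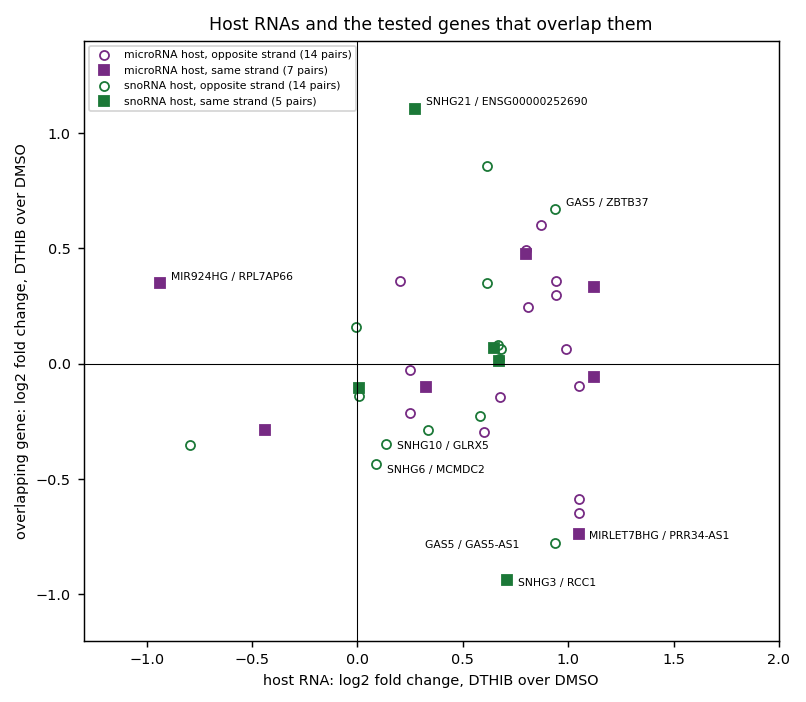
Each point is a host RNA and a tested gene that overlaps it, placed by the log2 fold change of the host (horizontal) and of the overlapping gene (vertical), DTHIB over DMSO; squares share the host's strand and open circles lie on the other strand. SNHG3 at 0.71 with RCC1 at -0.94 lies in the lower right, and SNHG21 with ENSG00000252690 at the top.

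Few reads were counted on the small RNA genes themselves. Within the GENCODE spans of the 59 tested hosts, 28 microRNA genes in introns held 264 reads over the 8 libraries and 25 that touch a host exon held 0. Of 92 snoRNA genes in introns 41 had a read, 2434 in all, and the 46 that touch an exon had 2. The 11 snoRNA genes that RefSeq lists in GAS5 are not among these, since GENCODE gave 0 for its span. How reads shared by a small RNA gene and a host exon were counted is not given, so low counts there need not mean few reads.

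Protein-coding genes that host the same small RNA classes were counted next to the noncoding hosts. Of 26 ribosomal protein genes that host snoRNAs, 25 were higher and 0 lower, beside 31.0% and 33.7% of all tested genes, with a median log2 fold change of 0.31. RPL37 (0.57, adjusted p = 1.5e-10), RPL10 (0.42, 1.2e-09) and RPL23 (0.39, 3.4e-09), subunits of the large ribosomal subunit, had the smallest adjusted p, and RPSA was the 1 not called (0.053) and was called higher without DTHIB replicate 2. Ribosomal protein genes have many processed pseudogenes, between which reads may be split. The 19 other coding snoRNA hosts were divided, 8 higher and 9 lower against the same shares of all tested genes, with a median of -0.081, with the smallest adjusted p in the translation factors EIF4A2 (0.65) and EEF2 (0.60) and the mitochondrial HSP70 gene HSPA9 (0.56). Coding microRNA hosts were divided too, 9 higher and 9 lower of 21 with a median of -0.034. MCM7, a replicative helicase subunit that carries miR-106b, miR-93 and miR-25, had 4723, 4675, 5029 and 4663 normalized counts in the DTHIB libraries, against 11757, 11679, 11287 and 10551 in the DMSO libraries, a log2 fold change of -1.25 ± 0.036 (SE; adjusted p = 1.9e-14); SMC4, the condensin subunit that carries miR-15b and miR-16-2, changed by -1.15 ± 0.040 (SE; adjusted p = 1.7e-13), and PDE2A by 2.19 ± 0.14 (SE; adjusted p = 5.9e-10). MCM7 and SMC4 were thus lower, and PDE2A higher, in all 4 DTHIB libraries than in any DMSO library.

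Genes of the proteins that bind snoRNAs were mostly lower in DTHIB cells. Of 8 snoRNP core proteins 0 were higher and 6 lower, beside 31.0% higher and 33.7% lower of all tested genes and 40.1% lower of protein-coding genes, and the median of their log2 fold changes was -0.17. The pseudouridine synthase DKC1, 1 of the 6 and also counted among the coding snoRNA hosts, was not called without DTHIB replicate 2 or 4 or DMSO replicate 1, 3 or 4 (adjusted p = 0.065 to 0.10). NOP58, a core protein of box C/D particles, had 3106, 3001, 3096 and 2965 normalized counts in the DTHIB libraries, against 4879, 4768, 4751 and 4540.3 in the DMSO libraries, without overlap, a log2 fold change of -0.64 ± 0.031 (SE; adjusted p = 1.3e-11). SNU13 (-0.23) and NOP56 (-0.18), of the same particle, followed; NOP56 also hosts snoRNAs and is counted in both lists. Of 10 tested assembly factors 0 were higher and 9 lower, with a median of -0.25, led by NAF1 (-0.44) and SHQ1 (-0.49), which load box H/ACA particles, and by the cap hypermethylase TGS1 (-0.37); without DTHIB replicate 2 the remaining member, ZNHIT6, was called higher (adjusted p = 0.033) and PIH1D1 was no longer called (0.055), which left 8 lower, and PIH1D1 was also not called without DMSO replicate 1 (0.066).

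Factors of nonsense-mediated decay, the pathway that degrades spliced snoRNA hosts, were 2 higher and 10 lower of 16, beside 31.0% and 33.7% of all tested genes, with a median of -0.10. RBM8A (-0.47) and MAGOH (-0.36), which form the exon junction complex core with EIF4A3, and the release factor GSPT1 (-0.32) had the smallest adjusted p, while UPF3A (0.20) and the kinase SMG1 (0.31) were higher. UPF1, the central helicase, was not called (-0.063, adjusted p = 0.077) and was called lower without DTHIB replicate 3 or DMSO replicate 2. SMG8, 1 of the 10 called lower, was not called without any 1 library other than DTHIB replicate 1 (adjusted p = 0.056 to 0.15). Decay itself was not measured.

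Genes of microRNA processing were split, 5 higher and 4 lower of 13 (38.5% and 30.8%), near the 31.0% and 33.7% of all tested genes, with a median of 0.0087. AGO4, an Argonaute protein, was higher by 0.35, XPO5, the exporter of precursor hairpins, higher by 0.23, and DROSHA, the nuclease that cuts primary transcripts, had a log2 fold change of -0.24 and was lower. Of the genes in that list, TNRC6B was not called higher without DTHIB replicate 2 or DMSO replicate 1 or 3, PRKRA not lower without DTHIB replicate 2 or 4 or DMSO replicate 1, 2 or 3, and TARBP2 not lower without DTHIB replicate 1 or 3 or DMSO replicate 1 or 3, while DGCR8 and DICER1 were called lower without DTHIB replicate 2. Without DMSO replicate 1 or without DMSO replicate 3 the number lower was 2, and the median turned to -0.027 without DMSO replicate 3 and to -0.020 without DTHIB replicate 2.

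**Figure D5:**
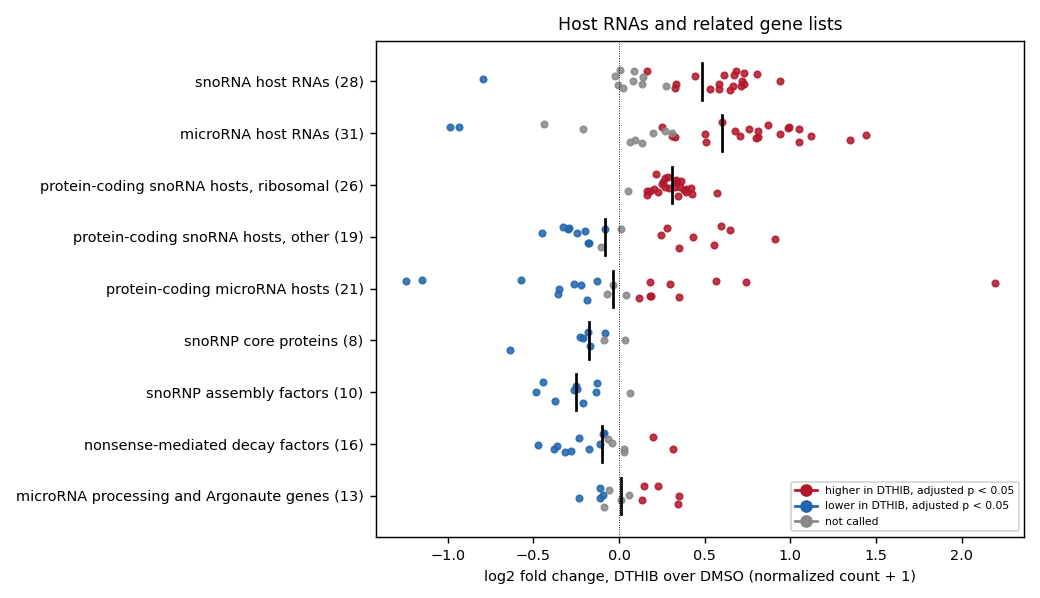
Each point is a gene, placed by its log2 fold change, DTHIB over DMSO, in the 2 host classes and 7 related lists; black bars are medians and the number of tested genes is in parentheses. Ribosomal snoRNA hosts cluster near 0.31, snoRNP proteins lie mostly below 0, and PDE2A is the point at 2.19.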

How the data were processed

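Poly(A)-enriched RNA of C4-2 cells was sequenced in 4 DTHIB and 4 DMSO libraries. Tools named in the submitters' processing notes are featureCounts (1.6.3) for counting, HISAT2 (2.1.0), DESeq2 (2.11.40.2), StringTie (1.3.4) and Trimmomatic (0.36.5), with the build GRCh38. The sources used here do not give their order, the annotation release, the strand setting or how reads with several matches were handled. The deposited table holds a normalized signal per gene and library (counts divided by size factors by the authors), the authors' mean signal, their log2 fold change and its standard error, a Wald score and the authors' p-value with its adjusted value. Of the 58884 gene IDs, 58472 had a symbol in the name table and 58611 were in GENCODE release 29.

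Members and gene lists were chosen with earlier results of these data known, and the motifs likewise. Genes with a mean of at least 10 were tested with limma 3.58.1 (R 4.3.3) on log2(normalized count + 1) with an intensity trend, two-sided, with Benjamini-Hochberg adjustment over all 17194 genes; fold changes are on that scale and understate the change of low genes. All values came out as whole reads (100%, within 0.01 of a read), so edgeR 4.0.16 and DESeq2 1.42.0 were run on recovered reads as alternatives; they called 64.7% and 59.9% of tested genes, against 64.6% by limma. The fits were also run on simulated data with known changes in a small part of the genes. Since 64.6% of tested genes were called here, those data do not show how well these calls hold. All members at 10 or more are named; values in every library are given for the members of smallest adjusted p in each class and direction (up to 4 snoRNA and 3 microRNA hosts), for 7 members set by name, and, after values were seen, for SNHG14 and MIR29B2CHG. Alternatives were other pseudocounts, filters, scalings and tests, a replicate block, each library left out, and members without overlapping genes. Some genes are not reported here.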

Additional observations from a re-analysis of the deposited data

Results flagged for a closer look

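In 4 of the 118 groups of 4 libraries formed by members and treatments, 1 library stood apart from the other 3 by Dixon's criterion, where chance gives about 1 in 20. MIRLET7IHG had 26.0 normalized counts in DMSO replicate 3. MIR3677HG had 16.3 in DMSO replicate 2. MIR1915HG had 56.3 in DTHIB replicate 2. MIR3147HG had 19.0 in DMSO replicate 4. All 4 are microRNA hosts of low count. MIRLET7IHG was called higher with any 1 library left out; MIR3677HG was called without DMSO replicate 2 and lost its call without 5 other libraries; MIR1915HG and MIR3147HG were not called in any such fit.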

How the results depend on the processing

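Of the 59 tested hosts, 51 kept the same call in every alternative setting in which they were fitted and 0 reversed; the settings numbered 17, and 45 hosts had the mean of at least 50 that 1 of them needs. With 1 library left out, snoRNA hosts called higher numbered 18 to 20 and lower 1, and microRNA hosts called higher 18 to 20 and lower 2 to 3. Among members without an overlapping gene other than small RNA genes, 8 snoRNA hosts were higher and 0 lower of 11. Of 10 such microRNA hosts 6 were higher and 1 lower, fewer members being counted. Over all tested genes 31.0% were higher and 33.7% lower. The snoRNA host median of 0.49 was 0.44 at a mean of at least 50, without overlapping genes and among members that hold an annotated small RNA, and 0.54 after quantile normalization. The microRNA host median of 0.60 was 0.49 with a pseudocount of 5, 0.73 at a mean of at least 50 and without overlapping genes, and 0.46 after quantile normalization, and microRNA hosts called lower numbered 1 at a mean of at least 50. With 1 library left out the microRNA processing median of 0.0087 ran up to 0.039 (without DTHIB replicate 1) and was -0.020 without DTHIB replicate 2 and -0.027 without DMSO replicate 3, and the coding microRNA host median was 0.049 after quantile normalization; the cause was not tested. MicroRNA processing genes called lower numbered 2 without the filter, with TMM, edgeR or DESeq2 and 1 after quantile normalization, against 4. With the replicate number as a block 19 snoRNA and 20 microRNA hosts were higher; same-numbered libraries had correlations of -0.072 to 0.014 in their deviations, so they share only a number. Low counts limit MIR503HG, MIR663AHG and MIR3171HG.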
